A study of Mus musculus with 13 samples.

Results

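Open chromatin was described at 45 genes of the nuclear receptor superfamily in nuclei of whole mouse kidneys, in 5 single-nucleus ATAC-seq (snATAC-seq) samples. The genes were chosen by family. Of the 300755 peaks in the data, 1076 overlapped the body of 1 of these genes or the 2 kb upstream of it in GENCODE on mm10. The 45 genes stand among 21911 protein-coding genes. Each had at least 1 peak, from 1 at Nr0b2 and Nr1h2 to 179 at Rora. The measure is gene activity, the number of open calls (a nucleus with at least 1 fragment in a peak) over all peaks of a gene, scaled to the same total of open calls in every sample and cluster and written as CPM. It is a level of accessibility and not of RNA.

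Nuclear receptors are transcription factors with a zinc finger DNA-binding domain and a ligand-binding domain. Many are switched by small lipophilic ligands such as steroids, thyroid hormone, retinoic acid, vitamin D, fatty acids and bile acids, while orphan members have no accepted physiological ligand. Many bind copies of the core site AGGTCA, alone or as dimers with a retinoid X receptor, and the ligand or its absence decides whether coactivators or corepressors are recruited. In kidney, HNF4A and the PPARs are known for proximal tubule metabolism, the mineralocorticoid receptor for sodium transport in the distal nephron, and the vitamin D receptor for calcium and phosphate handling.

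The P0 group holds 2 samples from newborn pups, and the adult group holds 3, of which 1 came from mice of 3 weeks (P21) and 2 from mice of 8 weeks (P56). The newborn samples are labelled P0, while the isolation protocol speaks of pups of 1 day. All samples came from whole kidneys without a stated transgene or treatment, and the labels give neither sex nor the hour of collection. The mouse strain of these samples is not given in the sources used here. Adult mice were perfused before the kidneys were taken and pups were not, so stage and preparation cannot be told apart. Nothing states how many animals gave each sample, and p-values therefore measure the spread between these samples, which may be technical in part.

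The samples held 3361 to 7129 nuclei and 16980853 to 43794155 open calls, and 27652 of 28316 nuclei fell into the 13 named clusters of the deposited annotation. No doublets were removed here, and their treatment by the authors is not given in the sources used here. Open peaks per nucleus had medians from 3371 in P56 replicate 1 to 6737 in P0 replicate 2. The windows of Nr1h3, Rxrb, Esrra, Thra, Rarb, Nr2f6, Nr1d1 and Nr2e1 share 1 or 2 peaks each with another gene, and those calls are uncertain. A barcode occurred in at least 2 samples for 477 of 27834 distinct barcodes. Of the clusters, Endo (endothelium), Immune, Stroma 1 and Stroma 2 lie outside the nephron and its ducts. PC and IC are the principal and intercalated cells of the collecting duct, CNT the connecting tubule and DCT the distal convoluted one, and LOH stands for the loop of Henle. PST and PCT are the straight and the convoluted part of the proximal tubule, Podo the podocytes and NP the progenitors of the nephron. Most markers led in their own cluster in all 5 samples. Cited1 led in NP in only 2, Trpv5 in CNT in 3, Pvalb in DCT in 4 and Akr1c21 in PCT in 3 and in PST in 1, and Col3a1 led in Stroma 2 in 5 samples and in Stroma 1 in 0. Col3a1 therefore does not set Stroma 1 apart, and adult NP, with 52 to 90 nuclei a sample, rests on Uncx alone. By the mean Cited1 led in NP at P0 and in Podo in the adult samples. Uncx in NP had means of 46.5 CPM at P0 and 21.2 in the adult samples. Trpv5, the only marker used for CNT, led by the mean in DCT at P0 and in CNT in the adult samples. In NP, CNT and Stroma 1 a change within a cell type and a change in which cells the cluster holds cannot be told apart. The paper places the end of nephron formation near P21 and reports Uncx expression in fetal but not adult kidney. NP held 1032 and 1005 nuclei at P0. Adult NP is therefore a label, and its nuclei are not shown to be progenitors.

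At P0 the most open cluster was PCT for 8 of the 45 genes, Immune for 7 and Endo for 5, and no gene led in LOH or CNT. In the adult samples PCT and Endo led for 7 each, Immune for 6 and LOH for 4, and no gene led in Podo. The leading cluster was the same in both stages for 20 genes. As mean open peaks per nucleus the leading cluster stayed the same for 23 of the 45 genes at P0 and 17 in the adult samples, and for 24 and 19 within 2 kb of gene starts. Its samples lay above those of every other cluster at P0 for 29 of the 45 genes (64.4%), against 45.2% of all genes. In the adult samples this held for 10 (22.2%), against 17.3% of all genes. The P0 count was 17 when nuclei were thinned to 1000 open peaks. The adult count was 2 as mean open peaks per nucleus, 4 within 2 kb of gene starts and 14 to 16 with an adult sample left out. The P0 value rests on 2 samples a cluster and the adult value on 3, so these shares are not to be compared with each other. The clusters were built on the same nuclei, so these levels are a description without a test.

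**Figure D1:**
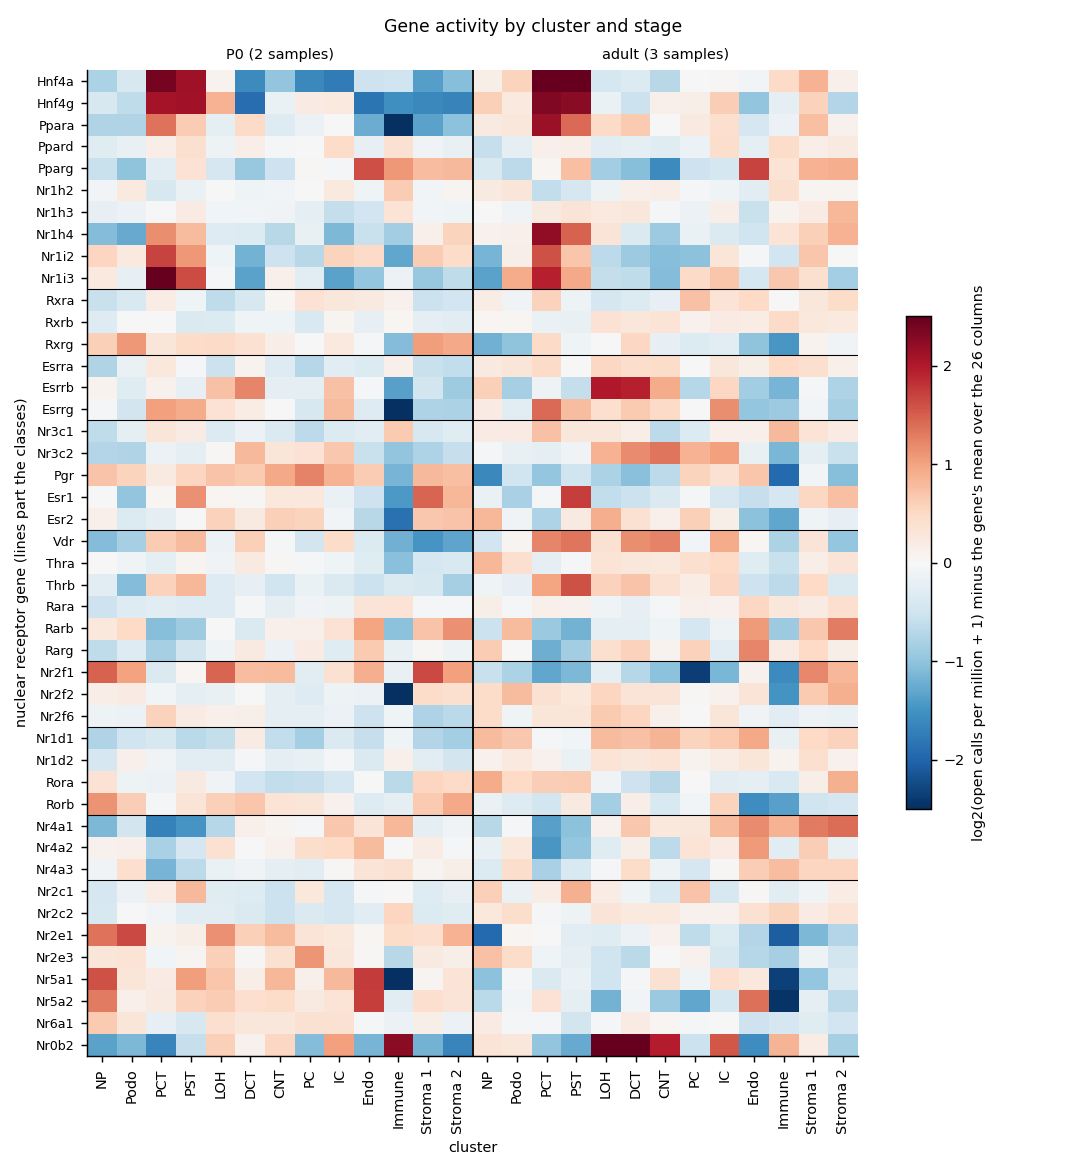
Gene activity of the 45 nuclear receptor genes in the 13 clusters, with P0 and adult means apart; rows are genes grouped by receptor class, columns are clusters, and colour gives log2(CPM + 1) minus the gene's mean over all columns. Ppara, Nr1h4 and Nr1i2 are highest in PCT and Rarg, Nr4a2 and Nr5a2 in Endo in both stages.

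A few genes led in 1 cluster in all 5 samples and were apart from the next cluster in both stages. Ppara, the fatty acid sensor that drives lipid oxidation, had 198 and 213 at P0 and 357, 313 and 401 in the adult samples in PCT, and the next cluster, PST, had means of 124 and 212. Nr1h4, the bile acid receptor FXR, had 105 and 98.0 at P0 and 196, 218 and 222 in the adult samples in PCT, with PST next at means of 78.0 and 126. Both genes were thus highest in PCT at either stage, with PST in second place.

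Nr1i2, the xenobiotic receptor PXR, had 70.8 and 71.2 at P0 and 77.5, 68.6 and 55.0 in the adult samples in PCT and means of 46.5 in PST at P0 and 35.2 in Stroma 1 in the adult samples, the next clusters. Thrb, a thyroid hormone receptor, led in PST with 232 and 246 at P0 and 392, 449 and 382 in the adult samples, ahead of PCT. In Endo, the retinoic acid receptor Rarg had 151 and 156 at P0 and 217, 215 and 255 in the adult samples. The endothelial group also held Nr4a2, an immediate early orphan receptor, and Nr5a2, known as LRH-1. Nr4a2 had 101 and 101 at P0 and 162, 103 and 106 in the adult samples and Nr5a2 62.8 and 55.3 at P0 and 44.4, 52.1 and 40.9 in the adult samples in Endo.

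A further 3 genes led in 1 cluster in every sample but were apart from the next cluster at P0 only. Pparg, the fat cell receptor, had 132 and 117 at P0 and 90.4, 174 and 126 in the adult samples in Endo, so the adult samples spanned a wide range. Esrrg had 469.7 and 466 at P0 and 591, 625 and 625 in the adult samples in PCT. Rarb had 328 and 310.4 at P0 and 381, 402 and 268 in the adult samples in Stroma 2, with P0 means of 319 there and 286 in Endo.

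Genes differ in how much of their window lies in peaks, so levels of different genes were set side by side only per kb of peak, the summed width of a gene's peaks. On that scale Esrra was the most open of the 45 genes in PCT and in PST at both stages. It had 52.5 CPM per kb of peak at P0 and 60.9 in the adult samples in PCT, and 42.2 and 44.1 in PST. The peak over its start also lies in the window of Catsperz, so its calls are uncertain by that peak. Hnf4a stood at 27.9 and 36.0 in PCT. Nr1d1 was the most open gene per kb of peak in adult NP, Podo, LOH, DCT, CNT, PC, IC, Endo and Stroma 2. It stood at 66.0 in LOH, 69.6 in CNT and 74.1 in Endo. Its window shares a peak with that of Thra, so its calls are uncertain by that peak.

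Stage was tested in each cluster by edgeR, 2 P0 against 3 adult samples, with Benjamini-Hochberg (BH) adjustment at 0.05 over all genes of the cluster, and fold changes are log2 differences of normalized open calls, adult minus P0. Of 585 pairs of a gene and a cluster, 524 passed the filter on low counts and 191 were called, 126 higher in the adult samples and 65 at P0. The filter asks for 2 samples above a cutoff, so a low pair can pass by the samples of 1 stage alone. Over all genes and the 13 clusters together, 10.7% of the tested pairs were higher in the adult and 13.9% at P0, and the counts of pairs below are to be read against these shares. All 45 genes were tested in at least 1 cluster. By direction, 23 genes were called only higher in the adult, 15 only at P0, 5 in both directions (Hnf4g, Esrrb, Esrrg, Esr1 and Rora) and 2 in neither (Ppard and Nr1h2). In all but 3 of the 191 pairs (Esrrg in Stroma 1, Vdr and Nr2c2 in NP) the P0 and the adult samples did not overlap, as in 97.5% of all called pairs. All clusters come from the same 5 samples, so counts over clusters are not independent. Stage differences in NP, CNT and Stroma 1 carry the limit given with their markers. Fewer open nuclei and fewer open sites per nucleus cannot be told apart in these sums.

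LOH had the most called members, and the adult direction led there and in the proximal tubule. In PCT 12 of 45 tested members were higher in the adult samples, against 12.1% of all genes, and 4 at P0, against 15.1%. Giving the adult count first and the percentage of all genes after each count, PST had 9 of 43 (5.49%) and 3 (7.86%) and LOH 19 of 44 (23%) and 11 (28.5%). In the distal nephron and collecting duct the counts were 4 of 37 (1.66%) and 1 (5.33%) in DCT, 11 of 44 (9.95%) and 6 (16%) in CNT, 8 of 42 (12.5%) and 8 (18.1%) in PC and 3 of 38 (0.492%) and 0 (1.65%) in IC. NP had 15 of 37 (18.4%) and 6 (20.8%) and Podo 9 of 39 (6.49%) and 3 (6.09%). Endo had 6 of 43 (10.9%) and 7 (14.3%), Stroma 1 14 of 40 (13.3%) and 8 (15.4%) and Stroma 2 16 of 43 (15.9%) and 8 (20%). The members' adult share was above that of all genes in 12 clusters, and their P0 share was above it in Podo, PC, Endo and Stroma 1. In Immune edgeR called 0 of 29 (0.0115%) and 0 (0.023%), with 5 members at an unadjusted p under 0.05 and 0 called by DESeq2. Where a DESeq2 count differed by more than 1.5 times, DESeq2 called 15 and 10 in NP, 4 and 0 in Podo, 12 and 2 in PCT, 9 and 0 in PST, 1 and 0 in DCT, 6 and 2 in CNT, 3 and 2 in PC, 5 and 3 in Endo and 10 and 3 in Stroma 1. Nuclei thinned to 1000 open peaks gave 40 adult and 20 P0 calls over all clusters. With library size as the only scaling, 64.7% of the PC calls were higher in the adult against 50.0% here, and with RLE scaling 57.1% of the Endo calls against 46.2%. Where a count moved by more than 1.5 times without P0 replicate 1, the counts were 9 and 5 in NP, 5 and 0 in Podo, 2 and 0 in PCT, 0 and 0 in PST, 11 and 7 in LOH, 0 and 0 in DCT, 5 and 2 in CNT, 2 and 2 in PC, 0 and 0 in IC, 1 and 1 in Endo, 5 and 1 in Stroma 1 and 6 and 5 in Stroma 2. Without P0 replicate 2 they were 3 and 1 in Podo, 4 and 0 in PCT, 0 and 0 in PST, 11 and 8 in LOH, 0 and 0 in DCT, 5 and 4 in CNT, 2 and 2 in PC, 0 and 0 in IC, 1 and 1 in Endo, 6 and 2 in Stroma 1 and 7 and 4 in Stroma 2. Without the P21 sample they were 18 and 10 in NP, 7 and 1 in PST, 6 and 5 in CNT, 1 and 0 in IC and 12 and 4 in Stroma 1. P56 replicate 1, left out, gave 16 and 10 in NP, 7 and 3 in DCT, 16 and 8 in PC, 6 and 1 in IC and 15 and 7 in Endo, and P56 replicate 2 gave 12 and 2 in PCT, 10 and 1 in PST, 1 and 0 in DCT, 2 and 5 in PC, 2 and 1 in IC and 11 and 1 in Stroma 1.

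The median log2 difference of the tested members was above 0 in 12 of the 13 clusters, from 0.08 in Endo to 0.38 in NP, and -0.04 in CNT. The median of all genes lay between -0.02 and 0.04. Of the 191 calls, 57 held with any 1 of the 5 samples left out, and 3 held in none of those fits (Nr2f1 in PST, Nr2e1 in Podo and Nr5a1 in Stroma 2). Over the clusters, 46 adult and 23 P0 calls were made without P0 replicate 1 and 49 and 29 without P0 replicate 2. These fits have 1 P0 sample, which is assumed to vary like the adult ones.

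**Figure D2:**
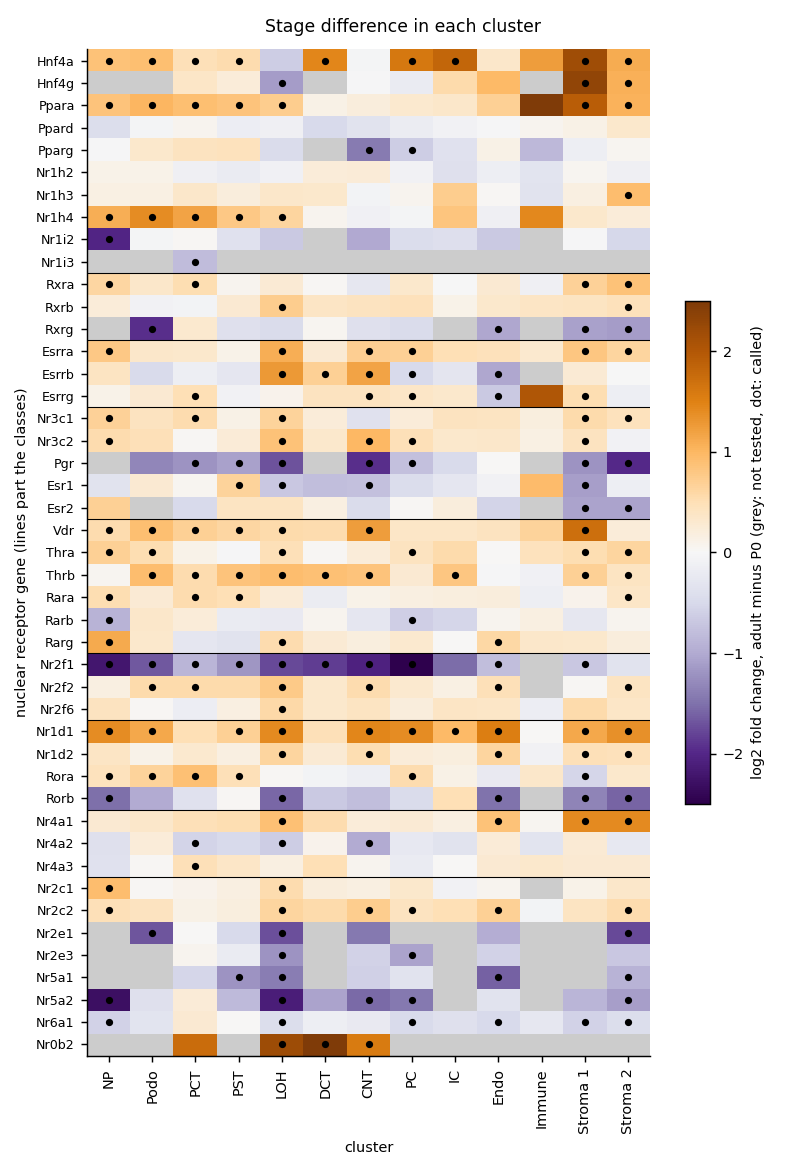
Log2 difference in gene activity, adult minus P0, for each nuclear receptor gene (rows) in each cluster (columns); a dot marks an edgeR call at a BH-adjusted 0.05 and grey a pair not tested. Nr1d1, Hnf4a and Thrb are called higher in the adult samples in 10, 9 and 9 clusters, and Nr2f1 higher at P0 in 10.

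Single peaks were tested the same way in PCT, LOH, Endo and Stroma 2, the largest clusters of proximal tubule, distal nephron, vessel and interstitium. In PCT 145 of 528 tested member peaks were higher in the adult samples (16.3% of all peaks) and 38 at P0 (17.6%). In LOH 121 of 332 were higher in the adult (24.5%) and 60 at P0 (29.9%). In Endo the counts were 30 (14.4%) and 27 (17%) of 183, and in Stroma 2 79 (23.7%) and 34 (26.5%) of 203. The median log2 difference of the member peaks was 0.49 in PCT, 0.44 in LOH, 0.10 in Endo and 0.46 in Stroma 2, against 0.02, -0.11, -0.02 and -0.02 for all peaks.

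Counts of a gene's called peaks given below are to be read against the shares of all peaks in the same cluster. A low peak can pass the filter by the samples of 1 stage alone, so these counts depend in part on the filter. Peaks over the annotated gene starts carried few of the PCT calls. In PCT 5 of 35 tested gene-start peaks were higher in the adult, against 6.42% of the tested peaks over any gene start, and 2 at P0, against 9.88%. Introns held 113 of the 145 adult calls and 400 of the 528 tested peaks. With the percentage of all gene-start peaks after each count, 19 of 34 in LOH were higher in the adult (28.6%) and 7 at P0 (20.9%). In Endo 7 (12%) and 5 (8.47%) of 29 were, and in Stroma 2 11 (16.6%) and 4 (12.4%) of 29. Over the 4 clusters together there were 375 adult and 159 P0 calls, and 151 and 60 without P0 replicate 1 or 165 and 67 without P0 replicate 2. Thinned nuclei gave 55 and 12. Fisher's exact test over nuclei, which are not replicates, gave 226 and 574, with the balance turned to P0. It compares shares of open nuclei and does not scale for depth. In LOH the median open peaks per nucleus were 6567 and 7430 at P0 and 3084, 2496 and 4477 in the adult samples. P0 medians were also above all adult ones in Endo and Stroma 2, and overlapped them in PCT. The part of depth in this balance was not tested.

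**Figure D3:**
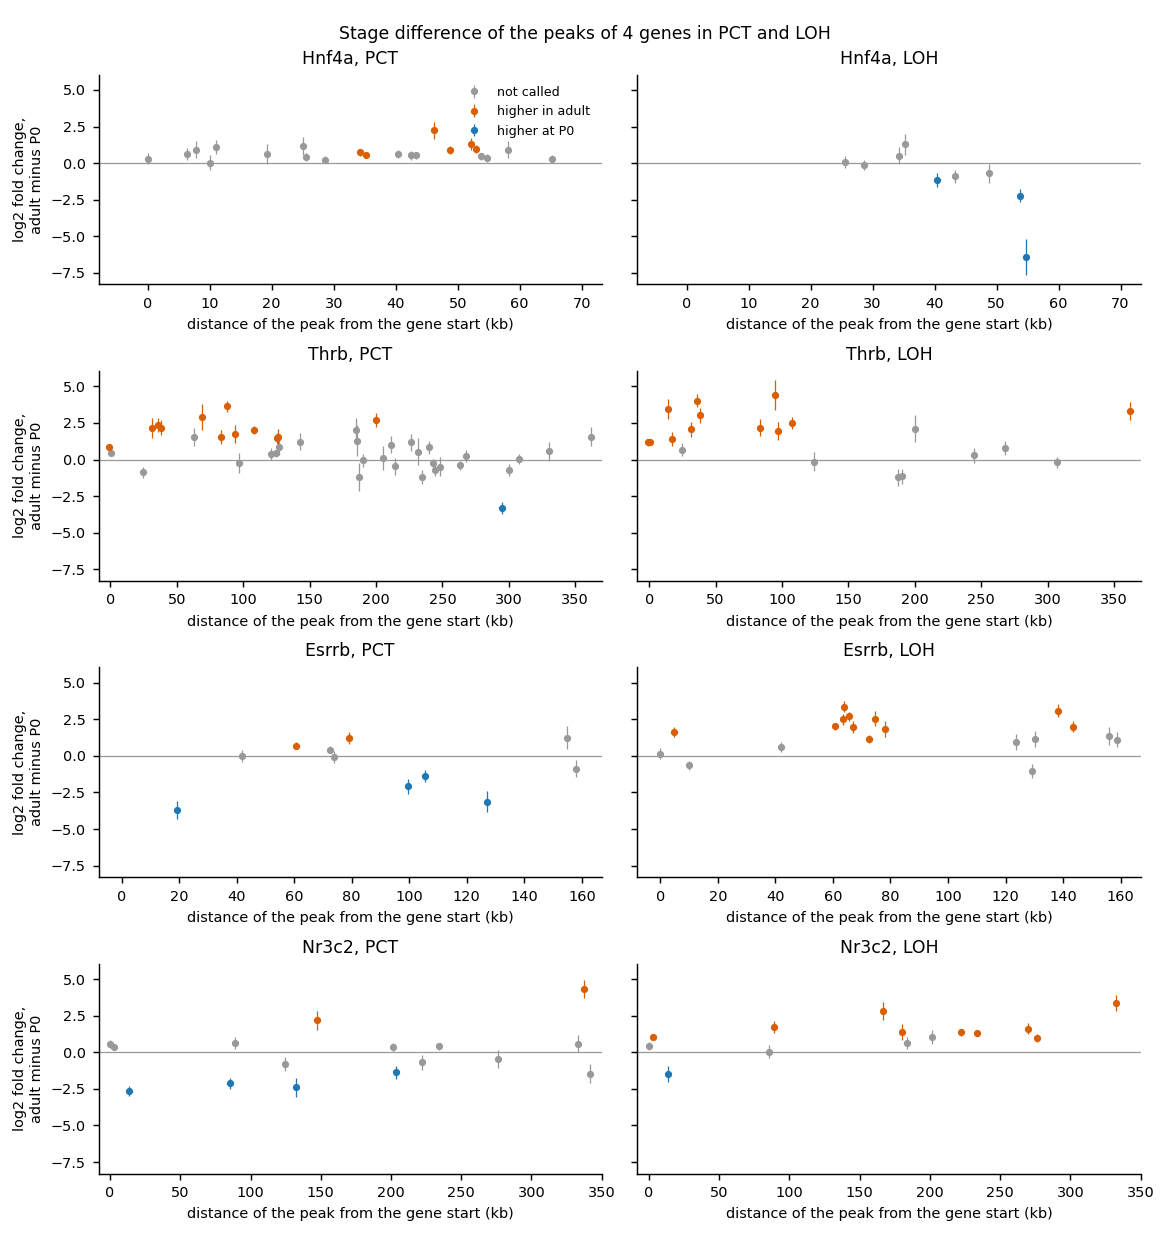
Log2 difference, adult minus P0, of each tested peak of Hnf4a, Thrb, Esrrb and Nr3c2 in PCT and LOH against the distance of the peak from the gene start in kb, with bars of 1 SE and colour by edgeR call. The called Thrb peaks of LOH all lie above 0 and the called Hnf4a peaks of LOH below 0.

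Hnf4a (ENSMUSG00000017950.16, chr2:163506808-163572910, + strand), a receptor with a central place in proximal tubule and liver gene programmes, has 22 peaks. In PCT it had 307 and 338 at P0 and 453, 344 and 449 in the adult samples (log2 difference 0.48 ± 0.13 SE, edgeR BH-adjusted p = 0.0203). In PST, whose P0 samples were also below all adult ones, it went from 236 and 292 to 461, 306 and 336 (log2 difference 0.54 ± 0.16 SE, edgeR BH-adjusted p = 0.0412). It was called higher in the adult in 9 of 13 tested clusters, 7 of them outside the proximal tubule and at much lower levels. In IC it had 17.1 and 17.3 at P0 and 69.4, 27.8 and 87.9 in the adult samples (log2 difference 1.82 ± 0.46 SE, edgeR BH-adjusted p = 0.0402), and in PC 19.8 and 18.4 at P0 and 82.8, 19.8 and 78.8 in the adult samples (log2 difference 1.61 ± 0.32 SE, edgeR BH-adjusted p = 8.76e-04). The largest of these differences was in Stroma 1, from 19.9 and 25.2 to 180.1, 30.3 and 123 (log2 difference 2.18 ± 0.30 SE, edgeR BH-adjusted p = 1.00e-05), and P56 replicate 1 was the lowest adult sample in all 3. LOH ran the other way in its estimate without a call, at 60.2 and 67.1 at P0 and 82.5, 15.8 and 34.0 in the adult samples (log2 difference -0.63 ± 0.41 SE, edgeR BH-adjusted p = 0.213). With samples left out, the Hnf4a call held in Stroma 1 and Stroma 2 with any 1 sample left out and was lost in NP and PC without P56 replicate 2, in Podo without P0 replicate 2 or P56 replicate 2, in PCT without either P0 sample, in PST without either P0 sample or the P21 sample, in DCT without either P0 sample or P56 replicate 2 and in IC without either P0 sample, the P21 sample or P56 replicate 2.

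In these clusters the summed CPM of 4 proximal tubule markers (Slc34a1, Slc5a2, Kap and Akr1c21) also had a higher mean in the adult samples. P56 replicate 1 was often low at Hnf4a and at the markers. In IC, PC and DCT an adult sample had a marker sum below that of a P0 sample. Their summed level in PCT went from 226 and 233 to 439, 361 and 398 CPM, P0 to adult. In IC it went from 23.9 and 12.9 to 57.5, 23.0 and 77.1, in PC from 23.1 and 25.9 to 86.5, 24.5 and 75.3 and in Stroma 1 from 23.8 and 26.7 to 129, 43.7 and 108. All 4 markers had a higher mean in the adult samples in these 3 clusters. In Podo the sum went from 30.3 and 24.0 to 114, 59.0 and 90.7, in NP from 25.1 and 26.0 to 38.9, 33.5 and 70.5, in DCT from 10.5 and 44.2 to 32.4, 52.9 and 64.1, in CNT from 18.2 and 20.1 to 54.4, 26.1 and 23.6 and in Stroma 2 from 23.9 and 27.0 to 61.5, 30.3 and 64.9. The part of these markers in the differences of Hnf4a, Hnf4g, Ppara, Nr1h4 and other members most open in PCT or PST, Vdr and Thrb among them, outside the proximal tubule was not tested.

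Of the Hnf4a peaks, 6 of 22 tested in PCT and 5 of 5 in Stroma 2 were higher in the adult, and 3 of 9 in LOH were higher at P0. The Stroma 2 peak with the largest difference had 1.06 and 1.00 at P0 and 9.11, 4.26 and 11.05 in the adult samples. It passed the filter by adult samples alone, so the Stroma 2 count is partly set by the filter. The gene-start peak in PCT had 3.96 and 3.29 at P0 and 4.16, 4.37 and 3.35 in the adult samples (log2 difference 0.30 ± 0.36 SE, edgeR BH-adjusted p = 0.551). The called PCT peak with the largest difference lies in an intron, 46.1 kb from the start, and had 0.742 and 0.897 at P0 and 4.38, 2.32 and 3.53 in the adult samples (log2 difference 2.24 ± 0.57 SE, edgeR BH-adjusted p = 0.00872). It is shown as the peak with the largest called difference. Here and below a sequence is the peak, or the central 300 bases of a wider peak, on the + strand of GRCm38.p6 (mm10) from RefSeq, with the core site in capitals (AGGTCA, or TGACCT where it lies on the other strand). This one holds none.
Hnf4a, chr2:163552809-163553084: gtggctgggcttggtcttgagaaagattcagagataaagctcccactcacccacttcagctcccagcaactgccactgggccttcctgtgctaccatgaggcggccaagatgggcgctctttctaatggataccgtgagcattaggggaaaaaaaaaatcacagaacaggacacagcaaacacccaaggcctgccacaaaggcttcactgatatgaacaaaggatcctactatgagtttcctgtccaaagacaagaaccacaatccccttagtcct

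Hnf4g, the close paralogue of Hnf4a, was most open in the proximal tubule. It rose in Stroma 1, from 2.62 and 4.04 to 23.8, 13.4 and 18.6 (log2 difference 2.32 ± 0.65 SE, edgeR BH-adjusted p = 0.00927), and fell in LOH, from 21.7 and 24.4 to 12.2, 10.9 and 9.13 (log2 difference -1.11 ± 0.24 SE, edgeR BH-adjusted p = 0.00243). The Stroma 1 values rest on 7, 4 and 10 open calls in the adult samples, and the pair passed the filter by adult samples alone. Its call was lost in LOH without P0 replicate 2, in Stroma 1 without either P0 sample and in Stroma 2 without either P0 sample, the P21 sample or P56 replicate 2. The proximal tubule itself gave no call, with 56.7 and 52.9 at P0 and 51.7, 78.5 and 64.3 in the adult samples in PCT (log2 difference 0.36 ± 0.19 SE, edgeR BH-adjusted p = 0.179).

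Ppara (ENSMUSG00000022383.13, chr15:85734983-85802819, + strand) rose in 7 of 13 tested clusters and its estimate was above 0 in all 13. The PCT values given above, in which both P0 samples are below all adult ones, differ by 0.92 ± 0.12 (SE) on the log2 scale (edgeR BH-adjusted p = 9.97e-04). In LOH it went from 67.2 and 67.9 to 132, 83.1 and 117 (log2 difference 0.72 ± 0.17 SE, edgeR BH-adjusted p = 0.00513). In Stroma 2 it went from 35.8 and 40.5 to 95.6, 54.8 and 106 (log2 difference 1.04 ± 0.19 SE, edgeR BH-adjusted p = 7.63e-04). The marker sum in LOH went from 29.0 and 30.2 to 67.2, 13.7 and 27.4 in adult order, with means of 29.6 at P0 and 36.1 in the adult samples. Its part in the Ppara difference was not tested. The Ppara call held in NP, PCT, LOH, Stroma 1 and Stroma 2 with any 1 sample left out and was lost in Podo without P0 replicate 2 and in PST without either P0 sample.

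Of the 17 Ppara peaks tested in PCT, 12 were higher in the adult and 0 at P0. The called peak with the largest difference had 0.742 and 0 at P0 and 2.96, 3.25 and 5.55 in the adult samples (edgeR BH-adjusted p = 0.00363), on 3 and 0 open calls at P0 and 27, 35 and 96 in the adult samples. It lies in an intron, 7.95 kb from the start, and is shown as the largest difference of the 12.
Ppara, chr15:85742787-85743076: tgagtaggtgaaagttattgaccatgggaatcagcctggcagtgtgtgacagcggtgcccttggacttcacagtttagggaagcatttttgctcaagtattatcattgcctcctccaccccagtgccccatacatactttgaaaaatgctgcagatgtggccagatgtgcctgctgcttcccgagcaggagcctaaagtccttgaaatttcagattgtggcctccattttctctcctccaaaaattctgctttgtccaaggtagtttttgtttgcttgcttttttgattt

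Nr1h4 (ENSMUSG00000047638.15, chr10:89454234-89533585, - strand) rose in 5 of 13 tested clusters. Its PCT values, given above, differ by 1.18 ± 0.12 (SE) on the log2 scale (edgeR BH-adjusted p = 3.82e-04), the largest adult difference of any called member in PCT. The largest called one in Podo was also at Nr1h4, from 17.8 and 18.5 to 25.9, 37.9 and 82.5 on 5 to 20 adult open calls a sample (log2 difference 1.40 ± 0.35 SE, edgeR BH-adjusted p = 0.0047). In LOH it had 38.7 and 32.1 at P0 and 80.6, 46.1 and 42.0 in the adult samples (log2 difference 0.63 ± 0.24 SE, edgeR BH-adjusted p = 0.0475), and within 2 kb of its start the LOH difference was -0.072. The call held in NP and PCT with any 1 sample left out and was lost in Podo without either P0 sample or P56 replicate 2, in PST without either P0 sample and in LOH without either P0 sample or the P21 sample.

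Of the 23 Nr1h4 peaks tested in PCT, 12 were higher in the adult and 0 at P0. The peak with the largest called difference, in an intron and 1.28 kb from the start, had 1.49 and 0.598 at P0 and 6.68, 4.93 and 6.59 in the adult samples (log2 difference 2.68 ± 0.48 SE, edgeR BH-adjusted p = 0.00109). It is the called element nearest to a gene start among those printed.
Nr1h4, chr10:89532151-89532450: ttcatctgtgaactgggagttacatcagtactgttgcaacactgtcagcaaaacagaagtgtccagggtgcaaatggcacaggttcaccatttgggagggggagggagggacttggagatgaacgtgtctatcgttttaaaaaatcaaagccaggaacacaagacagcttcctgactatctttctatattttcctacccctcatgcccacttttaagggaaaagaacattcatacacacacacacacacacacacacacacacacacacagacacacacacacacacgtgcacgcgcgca

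The other metabolic receptors gave few calls. Pparg fell in PC, from 44.8 and 36.8 to 31.3, 21 and 30.2 (log2 difference -0.63 ± 0.21 SE, edgeR BH-adjusted p = 0.0306), and in CNT. In Endo, where it was most open, its adult samples lay on both sides of the P0 ones (log2 difference 0.12 ± 0.21 SE, edgeR BH-adjusted p = 0.685). Nr1h3, the liver X receptor LXRα, rose in Stroma 2 from 53.1 and 53.6 to 79.7, 126 and 105 (log2 difference 0.93 ± 0.16 SE, edgeR BH-adjusted p = 5.35e-04). Nr1i2 was higher at P0 in NP and Nr1i3, the xenobiotic receptor CAR, in PCT. The Pparg call was lost in CNT without P0 replicate 1 or P56 replicate 2 and in PC without either P0 sample, P56 replicate 1 or P56 replicate 2, that of Nr1h3 held in Stroma 2 with any 1 sample left out, that of Nr1i2 held in NP with any 1 sample left out and that of Nr1i3 was lost in PCT without either P0 sample or P56 replicate 2. Ppard, a widely expressed fatty acid receptor, and Nr1h2, the liver X receptor LXRβ, were tested in all 13 clusters without a call, and Nr1h2 rests on 1 peak. Over all 10 metabolic receptors, 24 of 111 tested pairs (21.6%) were higher in the adult and 5 (4.5%) at P0.

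The retinoid X receptors are the shared dimer partners of many receptors. Rxra (ENSMUSG00000015846.14, chr2:27676440-27762957, + strand) was most open in PC in 4 of 5 samples and rose in NP, PCT, Stroma 1 and Stroma 2. In PCT it went from 209.6 and 236 to 279, 299 and 299.6 (log2 difference 0.51 ± 0.11 SE, edgeR BH-adjusted p = 0.00759). In LOH, its lowest cluster, it had 120.1 and 129 at P0 and 135, 159 and 143 in the adult samples without a call (log2 difference 0.25 ± 0.13 SE, edgeR BH-adjusted p = 0.122). Calls for it held in Stroma 2 with any 1 sample left out and were lost in NP without P0 replicate 1 and in PCT and Stroma 1 without either P0 sample. Rxrg went the other way, lower in the adult samples of Podo, Endo and both stromal clusters. In Podo it went from 33.4 and 28.9 to 5.19, 10.5 and 4.12, on 1 to 5 adult open calls a sample (log2 difference -1.95 ± 0.48 SE, edgeR BH-adjusted p = 0.0049). Rxrb rose in LOH and Stroma 2. The Rxrg call held in Stroma 2 with any 1 sample left out and was lost in Podo without either P0 sample, in Endo without either P0 sample, the P21 sample or P56 replicate 1 and in Stroma 1 without either P0 sample, the P21 sample or P56 replicate 2, and that of Rxrb was lost in LOH without P0 replicate 1 or P56 replicate 2 and in Stroma 2 without either P0 sample, the P21 sample or P56 replicate 2.

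Estrogen-related receptors are orphan receptors known for driving mitochondrial and oxidative genes. Esrra (ENSMUSG00000024955.14, chr19:6910977-6921813, - strand), the most open member per kb of peak in PCT, had an estimate above 0 in all 13 clusters and was called in 6. In LOH it went from 63.7 and 67.5 to 158, 108 and 146 (log2 difference 1.08 ± 0.16 SE, edgeR BH-adjusted p = 2.98e-04). In PC it went from 60.1 and 56.2 to 93.8, 75.8 and 117 (log2 difference 0.69 ± 0.16 SE, edgeR BH-adjusted p = 0.00287). PCT gave no call, with 107 and 124 at P0 and 150.5, 110.4 and 140.5 in the adult samples (log2 difference 0.33 ± 0.14 SE, edgeR BH-adjusted p = 0.0992). The peak over its start, with most of its calls, had 53.1 and 55.2 at P0 and 130.5, 87.3 and 129 in the adult samples (log2 difference 1.30 ± 0.24 SE, edgeR BH-adjusted p = 7.47e-05) in LOH and 57.7 and 65.5 at P0 and 83.9, 59.2 and 81.8 in the adult samples (log2 difference 0.48 ± 0.24 SE, edgeR BH-adjusted p = 0.139) in PCT. P56 replicate 1 was the lowest adult sample at that peak in both clusters. The peak also lies in the window of Catsperz, so its calls are uncertain for Esrra. The gene call held in NP and LOH with any 1 sample left out and was lost in CNT and Stroma 2 without either P0 sample, in PC without either P0 sample or P56 replicate 2 and in Stroma 1 without P0 replicate 1.

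Esrrb (ENSMUSG00000021255.17, chr12:86361117-86521628, + strand) was most open in the distal nephron. At P0 it led in DCT with a mean of 157, and in the adult samples LOH and DCT had means of 269.6 and 259. In LOH it went from 112 and 112 to 282, 262 and 265 (log2 difference 1.29 ± 0.12 SE, edgeR BH-adjusted p = 2.46e-05). In CNT it went from 55.8 and 57.9 to 112, 102 and 172 (log2 difference 1.19 ± 0.22 SE, edgeR BH-adjusted p = 4.12e-04), and in DCT from 153 and 162 to 229, 253 and 294 (log2 difference 0.69 ± 0.18 SE, edgeR BH-adjusted p = 0.0227). All adult samples of these 3 clusters were above both P0 samples. It fell in PC, from 53.0 and 60.0 to 40.5, 30.3 and 50.0 (log2 difference -0.50 ± 0.19 SE, edgeR BH-adjusted p = 0.0485), and in Endo, from 61.6 and 68.0 to 58.7, 24.2 and 25.2 (log2 difference -1.03 ± 0.24 SE, edgeR BH-adjusted p = 0.00828). Its call held in LOH and CNT with any 1 sample left out and was lost in DCT without either P0 sample or P56 replicate 2, in PC without either P0 sample, the P21 sample or P56 replicate 1 and in Endo without either P0 sample.

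The LOH difference of Esrrb lay away from its start. Of 19 tested peaks in LOH, 11 were higher in the adult and 0 at P0, and of 11 in PCT 2 were higher in the adult and 4 at P0. Counted within 2 kb of the gene start, the LOH difference was -0.085. The peak with the largest called difference lies 64.0 kb inside the gene and had 2.83 and 1.19 at P0 and 19.8, 15.5 and 18.2 in the adult samples (log2 difference 3.36 ± 0.38 SE, edgeR BH-adjusted p = 7.99e-08). It holds the core site once.
Esrrb, chr12:86424955-86425242: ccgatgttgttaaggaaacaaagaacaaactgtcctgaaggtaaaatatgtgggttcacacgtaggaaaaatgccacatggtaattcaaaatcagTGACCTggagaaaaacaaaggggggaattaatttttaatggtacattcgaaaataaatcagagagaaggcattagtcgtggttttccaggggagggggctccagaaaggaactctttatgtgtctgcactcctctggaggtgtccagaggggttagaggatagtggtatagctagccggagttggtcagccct

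Esrrg (ENSMUSG00000026610.13, chr1:187608791-188214885, + strand) has the second largest number of peaks, 129, and led in PCT in all 5 samples. There it went from 469.7 and 466 to 591, 625 and 625 (log2 difference 0.51 ± 0.10 SE, edgeR BH-adjusted p = 0.00619), and 22 of its 74 tested peaks were higher in the adult and 2 at P0. In CNT it went from 246 and 215 to 348, 335 and 281 (log2 difference 0.41 ± 0.15 SE, edgeR BH-adjusted p = 0.0457). In Endo it fell from 174 and 193 to 143, 114 and 96.0 (log2 difference -0.66 ± 0.16 SE, edgeR BH-adjusted p = 0.00845). Its call was lost in PCT and Endo without either P0 sample, in CNT without either P0 sample, the P21 sample or P56 replicate 1, in PC without either P0 sample or P56 replicate 2 and in Stroma 1 without either P0 sample, the P21 sample or P56 replicate 2. Over the 3 estrogen-related receptors, 13 of 38 tested pairs (34.2%) were higher in the adult and 3 (7.9%) at P0.

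Among the steroid receptors the corticoid receptors were called only higher in the adult, and the sex steroid receptors mostly at P0. Nr3c2 (ENSMUSG00000031618.13, chr8:76899442-77245012, + strand), the mineralocorticoid receptor through which aldosterone acts, was most open in DCT at P0 and in CNT in the adult samples. In CNT it went from 174 and 189 to 354, 385 and 376 (log2 difference 1.00 ± 0.14 SE, edgeR BH-adjusted p = 3.71e-05). In LOH it went from 156 and 145 to 262, 278 and 271 (log2 difference 0.87 ± 0.12 SE, edgeR BH-adjusted p = 2.11e-04), and in PC from 208 and 170.3 to 215, 307 and 286 (log2 difference 0.47 ± 0.15 SE, edgeR BH-adjusted p = 0.0251). The P0 and adult samples were apart in each of these. DCT and IC were not called, with 282 and 236 at P0 and 329, 336 and 337 in the adult samples in DCT (log2 difference 0.32 ± 0.16 SE, edgeR BH-adjusted p = 0.266) and 236 and 233 at P0 and 279.6, 325 and 294 in the adult samples in IC (log2 difference 0.31 ± 0.16 SE, edgeR BH-adjusted p = 0.333), where the stages did not overlap either. PCT had 136 and 131 at P0 and 129.8, 117 and 134 in the adult samples, with overlap. Calls for it held in LOH and CNT with any 1 sample left out and were lost in NP without either P0 sample and in PC and Stroma 1 without either P0 sample or P56 replicate 2.

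In LOH 9 of 14 tested Nr3c2 peaks were higher in the adult and 1 at P0, and in PCT 2 and 4 of 16. The called LOH peak with the largest difference, 333 kb from the start in an intron, had 0.944 and 0.397 at P0 and 3.84, 7.04 and 6.62 in the adult samples (log2 difference 3.38 ± 0.55 SE, edgeR BH-adjusted p = 1.44e-05). The same peak was higher at P0 in Stroma 2, with 77 and 66 open calls at P0 and 1, 2 and 3 in the adult samples. These calls are not scaled. Stroma 2 held 9479984 and 9003908 open calls in all at P0 and 878544, 1879672 and 1448349 in the adult samples. The peak was thus called in opposite directions in 2 clusters.
Nr3c2, chr8:77232221-77232520: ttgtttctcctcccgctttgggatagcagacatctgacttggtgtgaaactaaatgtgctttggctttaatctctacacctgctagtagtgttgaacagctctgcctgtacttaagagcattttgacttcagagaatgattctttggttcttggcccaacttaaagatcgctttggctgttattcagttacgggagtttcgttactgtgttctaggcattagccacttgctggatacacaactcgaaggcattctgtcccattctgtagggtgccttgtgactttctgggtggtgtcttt

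Nr3c1, the glucocorticoid receptor, was most open in Immune and PCT and rose in NP, PCT, LOH, Stroma 1 and Stroma 2. In PCT it went from 132 and 132 to 181, 178 and 177 (log2 difference 0.54 ± 0.10 SE, edgeR BH-adjusted p = 0.00377), and in Stroma 2 from 88.0 and 84.1 to 123, 113 and 132 (log2 difference 0.43 ± 0.13 SE, edgeR BH-adjusted p = 0.0168). Its call held in NP and LOH with any 1 sample left out and was lost in PCT, Stroma 1 and Stroma 2 without either P0 sample. Pgr, the progesterone receptor, fell in 7 of 10 tested clusters. The largest falls of any called member in PCT and in Stroma 2 were at Pgr, from 16.8 and 18.8 to 7.78, 8.46 and 5.44 (log2 difference -1.20 ± 0.27 SE, edgeR BH-adjusted p = 0.00916) and from 25.6 and 26.7 to 5.69, 6.92 and 7.59 (log2 difference -1.99 ± 0.24 SE, edgeR BH-adjusted p = 3.20e-05). These levels are low, at 5 to 13 adult open calls a sample in Stroma 2. Calls for it held in LOH and Stroma 2 with any 1 sample left out and were lost in PCT without either P0 sample, in PST and Stroma 1 without either P0 sample or P56 replicate 2, in CNT without P0 replicate 1 and in PC without either P0 sample, the P21 sample or P56 replicate 2.

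Esr1, the estrogen receptor alpha, rose in PST from 127 and 149 to 224, 245 and 156 (log2 difference 0.66 ± 0.19 SE, edgeR BH-adjusted p = 0.0388) and fell in LOH from 72.0 and 57.4 to 48.6, 43.7 and 28.8 (log2 difference -0.70 ± 0.21 SE, edgeR BH-adjusted p = 0.0168). It also fell in CNT and Stroma 1. The call held in Stroma 1 with any 1 sample left out and was lost in PST without either P0 sample, the P21 sample or P56 replicate 1, in LOH without P0 replicate 1 or P56 replicate 2 and in CNT without either P0 sample, the P21 sample or P56 replicate 2. Esr2 fell in both stromal clusters, a call that held in Stroma 2 with any 1 sample left out and was lost in Stroma 1 without either P0 sample, the P21 sample or P56 replicate 2. Over the 5 steroid receptors, 11 of 60 tested pairs (18.3%) were higher in the adult and 12 (20%) at P0, against 10.7% and 13.9% of all genes.

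The receptors of thyroid hormone, vitamin D and retinoic acid had 29 of 78 tested pairs (37.2%) higher in the adult, against 10.7% of all genes, and 2 (2.56%) at P0, both at Rarb. Thrb (ENSMUSG00000021779.17, chr14:17660261-18038090, + strand) rose in 9 of 13 clusters. In PST, its leading cluster, the values given above differ by 0.84 ± 0.13 (SE) on the log2 scale (edgeR BH-adjusted p = 0.00208). In LOH it went from 119 and 96.2 to 193, 214 and 196 (log2 difference 0.93 ± 0.14 SE, edgeR BH-adjusted p = 3.71e-04), and in PCT from 204 and 196 to 242, 319.9 and 245 (log2 difference 0.54 ± 0.15 SE, edgeR BH-adjusted p = 0.0206). Its P0 samples were below the adult ones in all 3. The call held in LOH and CNT with any 1 sample left out and was lost in Podo without P0 replicate 2, in PCT, PST, DCT, Stroma 1 and Stroma 2 without either P0 sample and in IC without either P0 sample or the P21 sample.

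Thrb peaks higher in the adult numbered 12 of 41 in PCT, with 1 higher at P0, and 12 of 20 in LOH, with 0. One intronic peak, 88.0 kb from the start, had 1.49 and 1.79 at P0 and 12.9, 20.1 and 20.2 in the adult samples (log2 difference 3.63 ± 0.37 SE, edgeR BH-adjusted p = 4.48e-05) in PCT. It is the largest difference among the printed peaks and holds the core site once.
Thrb, chr14:17748097-17748396: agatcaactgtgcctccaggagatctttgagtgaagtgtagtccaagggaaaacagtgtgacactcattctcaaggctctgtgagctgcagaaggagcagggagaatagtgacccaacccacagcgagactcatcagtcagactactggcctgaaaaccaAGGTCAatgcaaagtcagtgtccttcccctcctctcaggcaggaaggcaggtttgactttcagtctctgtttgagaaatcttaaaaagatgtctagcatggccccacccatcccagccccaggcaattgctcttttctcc

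Thra, the other thyroid hormone receptor, rose in 6 clusters, in LOH from 116 and 119.9 to 149.7, 149.7 and 183 (log2 difference 0.48 ± 0.14 SE, edgeR BH-adjusted p = 0.0119). Within 2 kb of its start the LOH difference was -0.20. Its call held in NP with any 1 sample left out and was lost in Podo, PC and Stroma 1 without either P0 sample or P56 replicate 2, in LOH without either P0 sample and in Stroma 2 without P0 replicate 1. Its window shares a peak with Nr1d1. Vdr, the vitamin D receptor, was most open in PST in 4 of 5 samples and had an estimate above 0 in all 13 clusters. It rose in CNT from 93.4 and 101 to 234, 215 and 256 (log2 difference 1.24 ± 0.16 SE, edgeR BH-adjusted p = 1.36e-05) and in PCT from 148 and 161 to 240.0, 204 and 251 (log2 difference 0.70 ± 0.12 SE, edgeR BH-adjusted p = 0.00254). In DCT it had 155 and 142 at P0 and 213, 229 and 224 in the adult samples, apart but not called (log2 difference 0.53 ± 0.18 SE, edgeR BH-adjusted p = 0.078). In Stroma 1 it went from 37.4 and 32.0 to 136, 87.4 and 147 (log2 difference 1.71 ± 0.18 SE, edgeR BH-adjusted p = 7.74e-07). The summed proximal tubule markers given above were also higher in every adult sample of NP, Podo, CNT and Stroma 1. Calls for it held in Podo, CNT and Stroma 1 with any 1 sample left out and were lost in NP without either P0 sample, P56 replicate 1 or P56 replicate 2, in PCT without P0 replicate 1 and in PST and LOH without either P0 sample.

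The retinoic acid receptors differed among themselves. Rara rose in NP, PCT, PST and Stroma 2, in PCT from 216 and 234 to 334, 264 and 303 (log2 difference 0.53 ± 0.11 SE, edgeR BH-adjusted p = 0.0076). Within 2 kb of its start the PCT difference was -0.70, from peaks that do not cover the annotated start. Rarg rose in Endo, its leading cluster, where the values given above differ by 0.59 ± 0.14 (SE) on the log2 scale (edgeR BH-adjusted p = 0.00807), and in LOH from 88.3 and 92.9 to 124, 105 and 156 (log2 difference 0.54 ± 0.16 SE, edgeR BH-adjusted p = 0.0174). Rarb fell in PC, from 165 and 146 to 95.7, 106 and 113 (log2 difference -0.61 ± 0.14 SE, edgeR BH-adjusted p = 0.0028), and in NP. In Stroma 2, its leading cluster, Rarb overlapped between stages. There 3 of its 22 tested peaks were higher in the adult and 7 at P0, against 23.7% and 26.5% of all peaks. The call of Rara was lost in NP, PCT and PST without either P0 sample and in Stroma 2 without either P0 sample, the P21 sample or P56 replicate 2, that of Rarg held in NP with any 1 sample left out and was lost in LOH without either P0 sample or P56 replicate 2 and in Endo without either P0 sample and that of Rarb held in NP with any 1 sample left out and was lost in PC without P0 replicate 1.

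**Figure D4:**
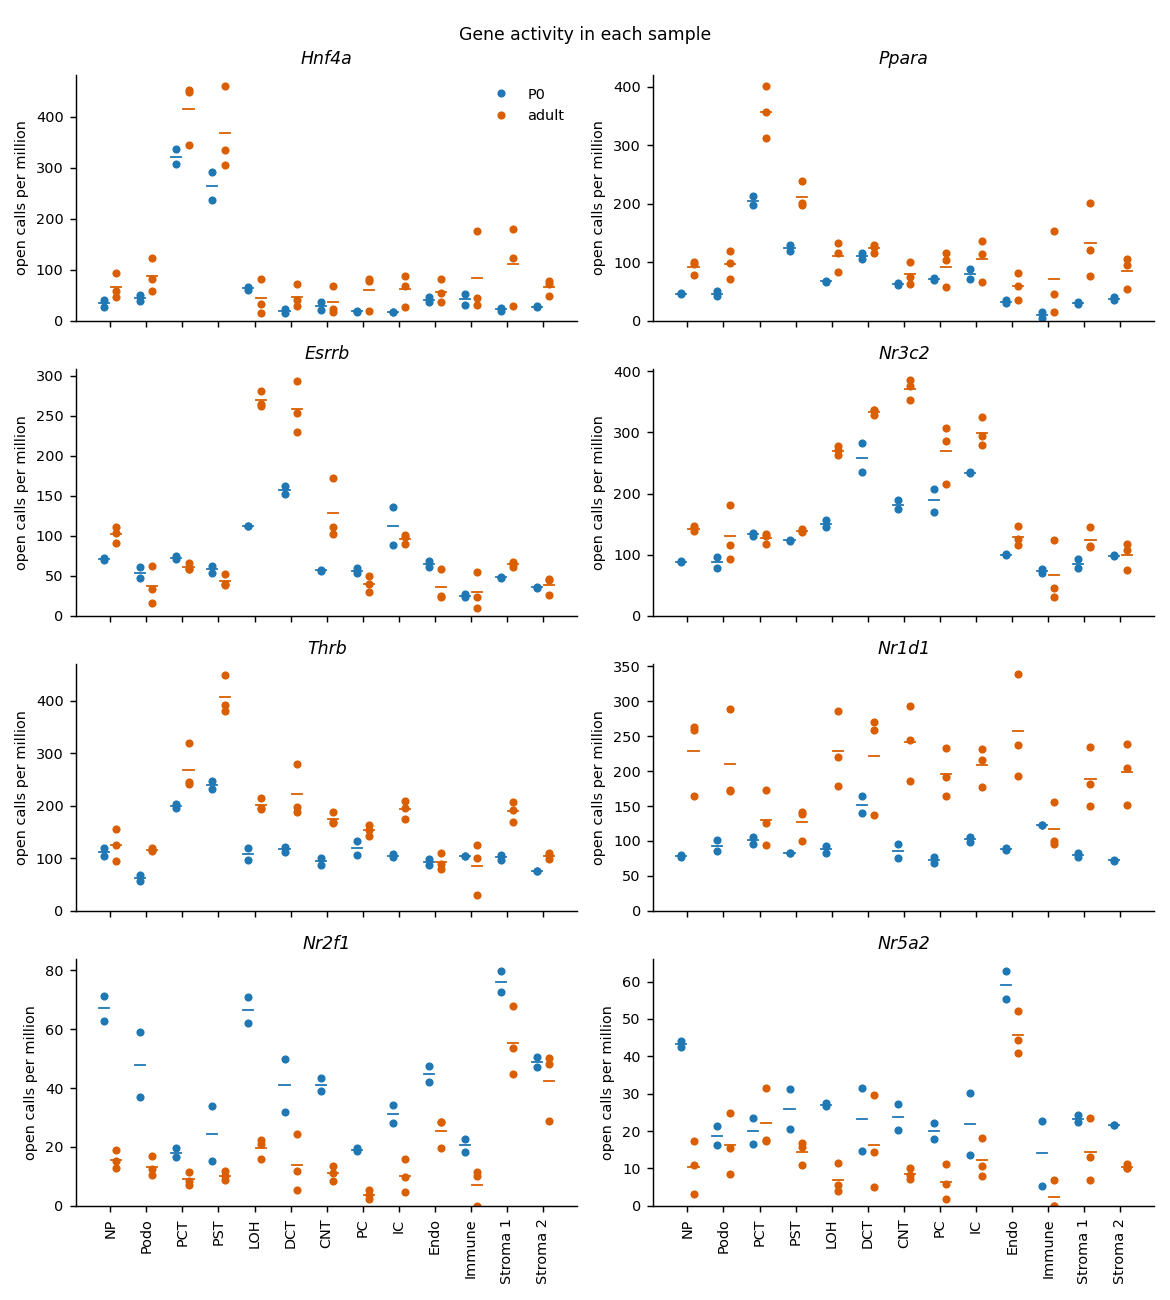
Gene activity in CPM of 8 nuclear receptor genes in the 13 clusters; points are samples, bars the means of 2 P0 (blue) and 3 adult (orange) samples. Nr2f1 is lower in the adult samples of nearly every cluster, while Nr1d1 is higher.

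COUP transcription factors are orphan receptors with roles in organ patterning and vessel identity. Nr2f1 (ENSMUSG00000069171.14, chr13:78188973-78199757, - strand) was highest in Stroma 1 and had an estimate below 0 in all 12 tested clusters, with 10 calls. In PC it went from 18.7 and 19.5 to 5.52, 2.33 and 3.52 (log2 difference -2.46 ± 0.41 SE, edgeR BH-adjusted p = 1.79e-04) and in CNT from 43.3 and 39.0 to 13.6, 11.1 and 8.47 (log2 difference -2.06 ± 0.33 SE, edgeR BH-adjusted p = 1.19e-04). In DCT it went from 50.0 and 31.9 to 24.3, 5.51 and 11.8 (log2 difference -1.84 ± 0.48 SE, edgeR BH-adjusted p = 0.0233) and in LOH from 70.8 and 62.1 to 22.4, 21.1 and 15.7 (log2 difference -1.76 ± 0.19 SE, edgeR BH-adjusted p = 4.34e-05). These were the largest falls of any called member in PC, CNT and DCT, and rest on 2 to 5 adult open calls a sample in PC. IC, with 34.1 and 28.1 at P0 and 9.92, 4.83 and 15.8 in the adult samples, and Stroma 2, with 50.6 and 47.1 at P0 and 50.1, 28.7 and 48.3 in the adult samples, gave no call. The call held in NP, LOH, CNT and PC with any 1 sample left out and was lost in Podo without P0 replicate 1, in PCT and Endo without either P0 sample, in PST without either P0 sample, the P21 sample, P56 replicate 1 or P56 replicate 2 and in DCT and Stroma 1 without either P0 sample or P56 replicate 2.

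In LOH 3 of the 4 Nr2f1 peaks were higher at P0. The one with the largest difference overlaps an exon, 4.58 kb from the start, and had 15.1 and 10.9 at P0 and 3.84, 0.705 and 0.456 in the adult samples (log2 difference -3.22 ± 0.48 SE, edgeR BH-adjusted p = 5.12e-06). The same peak was also higher at P0 in PCT and in Stroma 2. It was thus called in the same direction in 3 clusters.
Nr2f1, chr13:78195027-78195326: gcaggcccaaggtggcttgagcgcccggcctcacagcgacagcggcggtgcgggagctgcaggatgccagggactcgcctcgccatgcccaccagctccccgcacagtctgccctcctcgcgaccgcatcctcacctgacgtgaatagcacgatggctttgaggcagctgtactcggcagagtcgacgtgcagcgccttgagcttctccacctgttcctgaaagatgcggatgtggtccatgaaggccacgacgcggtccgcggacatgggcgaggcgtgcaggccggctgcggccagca

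Nr2f2, a gene known for vein identity and stroma, went the other way from its paralogue, with an estimate above 0 in all 12 tested clusters and 6 calls. In Endo it went from 83.9 and 76.7 to 109.5, 104 and 121 (log2 difference 0.47 ± 0.15 SE, edgeR BH-adjusted p = 0.0346), and in LOH from 76.9 and 79.6 to 136, 106 and 149.7 (log2 difference 0.77 ± 0.15 SE, edgeR BH-adjusted p = 0.00182). Nr2f6 rose in LOH from 81.2 and 83.2 to 124, 91.9 and 144 (log2 difference 0.58 ± 0.17 SE, edgeR BH-adjusted p = 0.0158). The Nr2f2 call held in LOH with any 1 sample left out and was lost in Podo without either P0 sample, the P21 sample or P56 replicate 1, in PCT without either P0 sample, in CNT and Stroma 2 without either P0 sample, the P21 sample or P56 replicate 2 and in Endo without either P0 sample or P56 replicate 2, and that of Nr2f6 was lost in LOH without either P0 sample or P56 replicate 2.

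REV-ERB and ROR receptors are the repressing and activating arms of a loop of the circadian clock, and their genes cycle over the day. Nr1d1 (ENSMUSG00000020889.11, chr11:98767932-98775333, - strand), which encodes REV-ERBα, rose in 10 of 13 clusters and had an estimate above 0 in all 13. In Endo it went from 87.4 and 90.4 to 238, 194 and 339 (log2 difference 1.53 ± 0.20 SE, edgeR BH-adjusted p = 1.98e-04). In NP it went from 77.2 and 79.4 to 259, 164 and 263 (log2 difference 1.39 ± 0.15 SE, edgeR BH-adjusted p = 1.95e-13), and in LOH from 83.1 and 92.7 to 221, 179 and 287 (log2 difference 1.41 ± 0.18 SE, edgeR BH-adjusted p = 1.22e-04). P0 and adult samples were apart in these 3. PCT and DCT overlapped, with 95.3 and 106 at P0 and 125, 94.2 and 172 in the adult samples in PCT and 139.6 and 165 at P0 and 269.7, 137 and 259 in the adult samples in DCT. The call held in NP, Podo, LOH, CNT, PC, Endo, Stroma 1 and Stroma 2 with any 1 sample left out and was lost in PST and IC without either P0 sample. Since the hour of collection is not given, stage and hour cannot be told apart for these genes.

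Of the 5 Nr1d1 peaks, 3 in LOH, 4 in Endo and 4 in Stroma 2 were higher in the adult, with 0 at P0. In PCT 1 was higher in the adult and 1 at P0, the peak shared with Thra, which had 7.18 and 6.58 at P0 and 0.767, 1.3 and 3.59 in the adult samples (log2 difference -1.55 ± 0.53 SE, edgeR BH-adjusted p = 0.0353). The one with the largest difference in Endo, 2.07 kb from the start in an intron, had 1.88 and 0.723 at P0 and 9.52, 12.1 and 21.2 in the adult samples (log2 difference 3.39 ± 0.49 SE, edgeR BH-adjusted p = 2.13e-05). This intronic peak was called in LOH, Endo and Stroma 2 and holds the core site once.
Nr1d1, chr11:98773114-98773413: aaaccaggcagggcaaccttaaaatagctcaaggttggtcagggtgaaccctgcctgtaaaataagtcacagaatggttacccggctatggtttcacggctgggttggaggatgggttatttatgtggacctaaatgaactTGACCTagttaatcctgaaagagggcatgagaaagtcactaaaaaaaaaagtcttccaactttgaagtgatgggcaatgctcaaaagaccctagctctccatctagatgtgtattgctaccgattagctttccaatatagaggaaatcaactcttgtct

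Nr1d2, the paralogue of Nr1d1, rose in LOH, CNT, Endo and both stromal clusters, in Endo from 85.8 and 93.3 to 157, 110.0 and 158 (log2 difference 0.64 ± 0.17 SE, edgeR BH-adjusted p = 0.0134). Rora (ENSMUSG00000032238.17, chr9:68653786-69388246, + strand), with the most peaks of any member, rose in PCT from 286 and 312 to 442, 550.0 and 533 (log2 difference 0.88 ± 0.13 SE, edgeR BH-adjusted p = 0.00156) and fell in Stroma 1 from 469 and 490.2 to 333, 397 and 371 (log2 difference -0.54 ± 0.15 SE, edgeR BH-adjusted p = 0.0106). In LOH, with 309 and 314 at P0 and 308, 349 and 275 in the adult samples, it gave no call, and 10 of 32 tested peaks were higher in the adult and 5 at P0, against 24.5% and 29.9% of all peaks. Rorb fell in 5 clusters, in Stroma 1 from 33.0 and 31.4 to 17.0, 10.1 and 14.9, on 3 to 8 adult open calls a sample (log2 difference -1.34 ± 0.32 SE, edgeR BH-adjusted p = 0.00292). The call of Nr1d2 was lost in LOH without P0 replicate 2, in CNT and Stroma 1 without either P0 sample or the P21 sample, in Endo without either P0 sample and in Stroma 2 without either P0 sample, the P21 sample or P56 replicate 2. That of Rora was lost in NP and PC without either P0 sample, in Podo and PCT without P0 replicate 1, in PST without either P0 sample or P56 replicate 1 and in Stroma 1 without either P0 sample, the P21 sample or P56 replicate 2. That of Rorb held in NP, LOH and Stroma 2 with any 1 sample left out and was lost in Endo without either P0 sample and in Stroma 1 without P0 replicate 1 or P56 replicate 2.

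NR4A receptors are immediate early genes induced by stress, calcium and growth signals. Nr4a1 (ENSMUSG00000023034.7, chr15:101254269-101274795, + strand) had an estimate above 0 in all 13 clusters and rose in 4. In Stroma 2 it went from 56.3 and 57.5 to 152, 95.2 and 238 (log2 difference 1.42 ± 0.24 SE, edgeR BH-adjusted p = 4.70e-04), and in Endo from 72.9 and 79.9 to 138, 105 and 176 (log2 difference 0.86 ± 0.19 SE, edgeR BH-adjusted p = 0.00534). P56 replicate 2 was its highest adult sample in Stroma 2. Nr4a2 fell in PCT, LOH and CNT, in PCT from 35.1 and 30.2 to 24.6, 19.0 and 18.5 (log2 difference -0.56 ± 0.18 SE, edgeR BH-adjusted p = 0.0416). Nr4a3 rose in PCT from 43.1 and 39.8 to 56.1, 55.4 and 49.6 (log2 difference 0.48 ± 0.13 SE, edgeR BH-adjusted p = 0.0216). The call of Nr4a1 held in LOH, Stroma 1 and Stroma 2 with any 1 sample left out and was lost in Endo without either P0 sample, that of Nr4a2 was lost in PCT without either P0 sample or P56 replicate 2, in LOH without P0 replicate 1, the P21 sample or P56 replicate 2 and in CNT without P0 replicate 2 and that of Nr4a3 was lost in PCT without either P0 sample or the P21 sample. Since adult mice were perfused and pups were not, stage and handling cannot be told apart at these genes.

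All 4 tested Nr4a1 peaks in Stroma 2 were higher in the adult. The one with the largest difference, 13.7 kb from the start, had 3.38 and 3.11 at P0 and 13.7, 7.45 and 25.6 in the adult samples (log2 difference 2.20 ± 0.38 SE, edgeR BH-adjusted p = 4.42e-05). In PCT the same peak was higher at P0, with 9 and 10 open calls at P0 and 5, 5 and 10 in the adult samples. These calls are not scaled. PCT held 4041065 and 3345160 open calls in all at P0 and 9131677, 10758653 and 17287332 in the adult samples. The gene-start peak there had 1.73 and 2.09 at P0 and 8.43, 6.41 and 13.8 in the adult samples (log2 difference 2.54 ± 0.47 SE, edgeR BH-adjusted p = 0.00143). The sequence shown is that of the peak at 13.7 kb, whose direction differed between these clusters.
Nr4a1, chr15:101267821-101268120: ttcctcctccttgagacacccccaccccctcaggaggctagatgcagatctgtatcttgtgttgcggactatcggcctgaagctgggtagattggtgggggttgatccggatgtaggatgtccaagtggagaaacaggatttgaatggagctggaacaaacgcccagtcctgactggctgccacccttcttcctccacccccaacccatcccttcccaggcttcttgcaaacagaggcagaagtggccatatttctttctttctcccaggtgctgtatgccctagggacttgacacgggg

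The remaining orphan receptors had 20 of 74 tested pairs (27%) higher at P0, against 13.9% of all genes, and 11 (14.9%) higher in the adult, against 10.7%. Nr5a2 (ENSMUSG00000026398.14, chr1:136842571-136960448, - strand) fell in NP, LOH, CNT, PC and Stroma 2. In LOH it went from 26.7 and 27.4 to 11.5, 5.64 and 3.88 (log2 difference -2.11 ± 0.33 SE, edgeR BH-adjusted p = 3.90e-04), and in NP from 44.0 and 42.6 to 17.3, 3.05 and 10.8 (log2 difference -2.30 ± 0.38 SE, edgeR BH-adjusted p = 5.43e-07). In Endo, where it was most open, the stages were apart without a call (log2 difference -0.34 ± 0.17 SE, edgeR BH-adjusted p = 0.165). Its call held in NP and LOH with any 1 sample left out and was lost in CNT without P0 replicate 1 and in PC and Stroma 2 without either P0 sample.

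Nr5a1, known as SF-1 in steroidogenic tissue, fell in Endo from 28.6 and 28.6 to 12.7, 10.5 and 5.51 (log2 difference -1.62 ± 0.28 SE, edgeR BH-adjusted p = 0.00145) and in PST from 14.5 and 20.1 to 5.59, 7.59 and 7.48 (log2 difference -1.21 ± 0.36 SE, edgeR BH-adjusted p = 0.0442). Nr6a1, the germ cell nuclear factor, fell in 6 clusters, in LOH from 137 and 133 to 106, 95.5 and 98.1 (log2 difference -0.41 ± 0.12 SE, edgeR BH-adjusted p = 0.0154), and 0 of its calls held in all 5 fits with a sample left out. Nr2e1 fell in LOH, Podo and Stroma 2, in LOH from 16.1 and 14.7 to 7.68, 2.82 and 4.33 (log2 difference -1.73 ± 0.34 SE, edgeR BH-adjusted p = 0.0016), a call that held in LOH with any 1 sample left out and was lost in Stroma 2 without P0 replicate 2, while its call in Podo held in none of these fits. Nr2e3 fell in LOH from 17.7 and 19.9 to 10.2, 7.4 and 7.3 (log2 difference -1.20 ± 0.26 SE, edgeR BH-adjusted p = 0.00267) and in PC, a call that was lost in LOH and PC without P0 replicate 2. Nr0b2, the corepressor SHP, rose in LOH, from 4.25 and 7.34 to 16.6, 25.4 and 33.8 (log2 difference 2.19 ± 0.34 SE, edgeR BH-adjusted p = 3.81e-04), and in DCT and CNT. It rests on 1 peak, with 2 and 1 open calls at P0 and 12, 20 and 75 in the adult samples of DCT. As CPM these are 5.27 and 2.46 at P0 and 32.4, 22.0 and 28.6 in the adult samples, and the pair passed the filter by adult samples alone. In CNT Nr0b2 went from 4.55 and 6.3 to 19.0, 9.05 and 21.8 (log2 difference 1.57 ± 0.53 SE, edgeR BH-adjusted p = 0.0336). Nr2c1 and Nr2c2, the testicular receptors, rose in 2 and 6 clusters, Nr2c2 in LOH from 65.6 and 66.3 to 99.8, 82.1 and 119.8 (log2 difference 0.64 ± 0.16 SE, edgeR BH-adjusted p = 0.00719). The call of Nr5a1 held in Endo with any 1 sample left out and was lost in PST without either P0 sample or the P21 sample, that of Nr0b2 held in LOH with any 1 sample left out and was lost in DCT without either P0 sample or P56 replicate 2 and in CNT without either P0 sample, the P21 sample or P56 replicate 2 and that of Nr2c2 in LOH was lost without either P0 sample.

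Whether the stage difference of a gene differed between LOH and PCT was tested by the cluster by stage term, with the sample as a block. It was called for 26 of the 45 members (57.8%), against 37% of all genes. The difference, LOH minus PCT, was above 0 for 11 and below 0 for 15, with a median of -0.23 over the members and -0.04 over all genes. Without P0 replicate 1 the term was called for 13 members and without P0 replicate 2 for 14. In the separate fits, 9 members were called in the same direction in both clusters and 0 in opposite directions.

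The difference was above 0 at Esrrb and Nr3c2. Esrrb stood at 1.29 ± 0.12 (SE) in LOH and -0.14 ± 0.12 in PCT, a difference of 1.40 ± 0.12 (edgeR BH-adjusted p = 1.18e-05). Nr3c2 stood at 0.87 ± 0.12 and 0.04 ± 0.11, a difference of 0.81 ± 0.14 (edgeR BH-adjusted p = 7.30e-04). Nr1d1 and Esrra differed by 0.90 ± 0.14 and 0.73 ± 0.12. The log2 stage difference was lower in LOH at Hnf4a, at -0.63 ± 0.41 and 0.48 ± 0.13 (difference -1.23 ± 0.34, edgeR BH-adjusted p = 0.0134), and at Hnf4g, at -1.11 ± 0.24 and 0.36 ± 0.19 (difference -1.55 ± 0.22, edgeR BH-adjusted p = 2.03e-04). For Ppara and Nr1h4 the term was not called, with differences of -0.23 ± 0.16 and -0.62 ± 0.27. The difference furthest from 0 was at Nr5a2, -2.41 ± 0.38 (edgeR BH-adjusted p = 4.16e-04), which had 23.5 and 16.4 at P0 and 17.5, 31.4 and 17.3 in the adult samples in PCT.

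**Figure D5:**
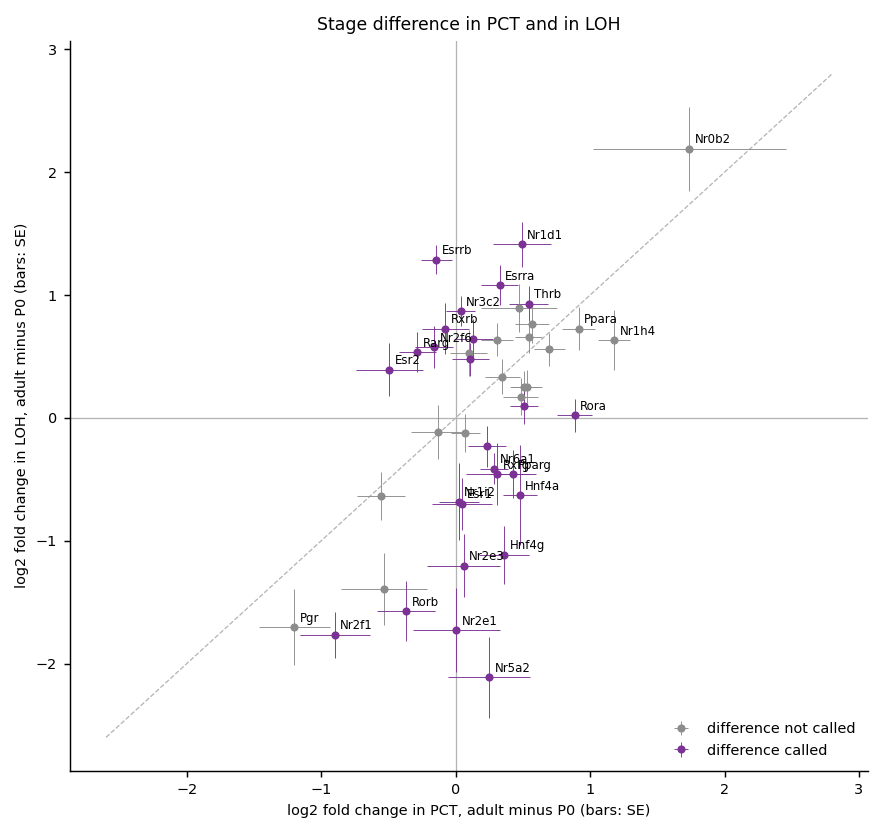
Log2 difference, adult minus P0, of the 45 nuclear receptor genes in PCT (x) and LOH (y), with bars of 1 SE; purple marks the 26 genes with a called cluster by stage term and the dashed line equal differences. Esrrb and Nr3c2 lie above the line and Hnf4a, Hnf4g and Nr5a2 below it.

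Genes around the receptors were counted from 4 lists with the same fits, and every pair named here passed the edgeR test. Of 12 coregulators, 42 of 155 tested pairs (27.1%) were higher in the adult and 3 (1.94%) at P0, against 10.7% and 13.9% of all genes, and the median log2 difference of the list ran from 0.14 to 0.37 over the clusters. Ppargc1a, the coactivator PGC-1α of oxidative metabolism, went from 89.9 and 74.2 to 224, 185 and 186 (1.29 ± 0.15) in LOH, P0 to adult with the log2 difference and its SE, and from 143 and 125 to 199.7, 181 and 194 (0.62 ± 0.11) in PCT.

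Of 12 genes of retinoid supply, which make, carry or break down retinoic acid, 7 of 108 tested pairs (6.48%) were higher in the adult and 46 (42.6%) at P0, beside the same 10.7% and 13.9%. In LOH the adult samples were higher at 1 of 12 and P0 at 10, against 23% and 28.5% of all genes, with a median log2 difference of -1.77 against -0.02 for all genes. There Aldh1a1, a retinaldehyde dehydrogenase, went from 16.5 and 12.1 to 6.4, 6.34 and 3.65 (-1.44 ± 0.33). In PCT Aldh1a1 went the other way, from 13.4 and 13.8 to 26.1, 45.8 and 40.6 (1.59 ± 0.27).

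Of 11 genes of steroid, vitamin D and thyroid hormone metabolism, 21 of 103 tested pairs (20.4%) were higher in the adult and 14 (13.6%) at P0, where the P0 share is near the 13.9% of all genes. The median was 0.30 in PCT and -0.69 in LOH. In PCT 4 of 11 were higher in the adult and 0 at P0, against 12.1% and 15.1% of all genes. In LOH 0 of 11 were higher in the adult and 6 at P0, against 23% and 28.5%. Dio1, the deiodinase that makes active thyroid hormone, went from 39.8 and 39.5 to 70.3, 92.2 and 96.0 (1.24 ± 0.17) in PCT. Cyp27a1 went from 14.1 and 14.1 to 21.7, 31.8 and 41.3 (1.30 ± 0.29) in PCT and from 19.1 and 17.9 to 7.04, 8.45 and 4.11 (-1.54 ± 0.31) in LOH. Hsd11b2, which inactivates glucocorticoids at the mineralocorticoid receptor, went from 30.9 and 30.4 to 14.1, 21.8 and 18.7 (-0.69 ± 0.21) in LOH.

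Of 18 known target genes of the receptors, 76 of 193 tested pairs (39.4%) were higher in the adult, against 10.7% of all genes, and 6 (3.11%) at P0, and the median ran from 0.15 to 0.82 over the clusters. In CNT 10 of 16 tested targets were higher in the adult, against 9.95% of all genes, among them Scnn1a, an aldosterone-responsive sodium channel subunit, from 63.8 and 97.0 to 179.5, 149.8 and 159 (0.96 ± 0.18). The 10 also include Trpv5, the only marker used for CNT, from 37.6 and 35.3 to 130.5, 86.5 and 115.5. The CNT count therefore carries the limit given with that marker and does not separate targets from which cells the cluster holds. Fkbp5, a glucocorticoid-induced co-chaperone, went from 190.3 and 181 to 277, 297 and 349.5 (0.85 ± 0.13) in PCT and from 132 and 142 to 289, 322 and 399 (1.23 ± 0.15) in Stroma 2. Per1, a clock gene that glucocorticoids also induce, went from 94.6 and 111 to 290.4, 204 and 320.4 (1.42 ± 0.18) in LOH. Calb1 was higher in the adult in CNT, from 29.6 and 44.1 to 209, 136 and 141 (2.02 ± 0.23), and at P0 in LOH, from 11.1 and 12.1 to 3.84, 2.82 and 4.79 (-1.52 ± 0.32). The lists describe accessibility only, and a link between a receptor and a target was not tested.

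The letters of receptor sites were searched on both strands in the central 300 bases of the 300693 peaks on assembled chromosomes. The core site AGGTCA was in 264 of the 1076 member peaks (24.5%) and in 63575 of all peaks searched (21.1%). The extended core site TCAAGGTCA, which contains it and is the form bound by estrogen-related receptors, was in 11 member peaks (1.02%) and in 0.853% of all peaks. Of these 11, 4 lie in Esrrb and 3 in Esrrg, which hold 48 and 129 of the 1076 member peaks. Exact repeats of the core site with spacers of 0 to 5 bases, DR0 to DR5, were each in at most 1 member peak, as was the inverted repeat of the steroid core site AGAACA with a spacer of 3 bases. The inverted repeats of AGGTCA with spacers of 1 and 3 bases and the everted repeat with 6 were in 0 member peaks.

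Among the tested member peaks of LOH, the core site was in 33.1% of those higher in the adult, 20% of those higher at P0 and 19.2% of those not called. In PCT the shares were 29.7%, 15.8% and 28.4%. In Endo they were 26.7%, 18.5% and 17.5%, and in Stroma 2 25.3%, 17.6% and 17.8%. These shares rest on 27 to 345 peaks each and are a description without a test. No such split was made over all tested peaks of a cluster, so they are not shown to be particular to the member peaks.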

How the data were processed

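Nuclei of whole kidneys were profiled by snATAC-seq in 2 P0, 1 P21 and 2 P56 samples. Per the labels and methods, the authors aligned reads to mm10 (Cell Ranger ATAC 1.1.0 in the submitters' processing notes), called peaks with MACS2 and deposited a binarized matrix of nuclei by peaks. The counts used here are open calls summed from that deposited matrix by sample and annotated cluster, with at least 20 nuclei each; 89197 stored zeros were read as closed. A gene's activity is the sum over peaks that overlap its body or the 2 kb before its start. Tests used edgeR 4.0.16 (with limma 3.58.1, R 4.3.3), namely its quasi-likelihood test after TMM scaling and filterByExpr (minimum count 10 and total 15), with BH at 0.05, tested first on simulated data. Standard errors are the absolute log2 difference over the square root of F. Python 3.11.15, numpy 2.4.6, pandas 2.3.3, scipy 1.17.1 and matplotlib 3.10.9 did the rest. Alternatives were DESeq2 1.42.0, other scalings, filters, windows, thinned or equal nuclei, Fisher's exact test over nuclei, a replicate block and each sample left out. Members and lists were chosen with earlier results of these data known. Named are the largest called member per cluster and direction, members with a textbook kidney role and those leading 1 cluster in all samples; further members named for completeness were chosen after their values were seen. The scRNA-seq, bulk ATAC-seq and embedding files were not used. Some genes of the lists are not reported here by name.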

Additional observations from a re-analysis of the deposited data

Results flagged for a closer look

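For 26 members the difference between P0 and adult samples was itself different in LOH and PCT, by the edgeR test of the cluster by stage term. The values are the log2 difference in LOH minus that in PCT. Among the metabolic receptors and RXRs it was lower in LOH at Hnf4g (-1.55), Hnf4a (-1.23), Pparg (-0.93), Nr1i2 (-0.74) and Rxrg (-0.85), and higher at Rxrb (0.77). Among the estrogen-related and steroid receptors it was higher in LOH at Esrrb (1.40), Esr2 (0.87), Nr3c2 (0.81) and Esrra (0.73), and lower at Esr1 (-0.77) and Esrrg (-0.45). Pparg, Nr1i2, Rxrg, Esr2 and Rarb were called in neither cluster alone. The hormone receptors Rarg (0.78), Thrb (0.37) and Thra (0.33) were higher and Rarb (-0.47) lower. Of the clock and COUP receptors, Nr1d1 (0.90) and Nr2f6 (0.70) were higher and Rorb (-1.21), Rora (-0.89) and Nr2f1 (-0.87) lower. The other orphan receptors Nr5a2 (-2.41), Nr2e1 (-1.71), Nr2e3 (-1.25) and Nr6a1 (-0.73) were lower, and Nr2c2 (0.49) higher. Nr5a2, Nr2e1 and Nr2e3 are low in both clusters.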

How the results depend on the processing

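With 1 sample left out the gene calls ranged from 46 to 170 higher in the adult and from 23 to 79 at P0, against 126 and 65, lowest without P0 replicate 1 and highest without P56 replicate 1. DESeq2 gave 39 P0 calls. Nuclei thinned to 1000 open peaks, which leaves fewer open calls, gave 40 and 20, equal nuclei per sample 40 at P0, and the 2 kb around gene starts 66 and 39. Near the start the sign of the log2 difference turned for 16 of the 149 called pairs with a value there, and for 2 of 140 when thinned. Among the largest calls and those of members with a kidney role, it turned near the start for Nr1h4 (-0.072), Esrrb (-0.085) and Thra (-0.20) in LOH and Rara (-0.70) in PCT. Those of Nr1h4 and Esrrb are small, and no SE is given with these values. No peak covers the annotated start of Rara. The cause was not tested. For peaks, against 375 and 159 calls, leaving out a sample gave 151 to 459 and 60 to 196, DESeq2 88 at P0, no filter 242 at P0, thinning 55 and 12, equal nuclei 198 and 77, and Fisher's exact test over nuclei, which are not replicates, 226 and 574. The LOH against PCT term was called for 14 members with DESeq2, 14 thinned and 13 to 28 with a sample left out, against 26. A leading cluster apart from all others was found for 17 members at P0 when thinned, against 29, and in the adult samples for 2 as mean open peaks per nucleus, 4 around gene starts and 14 to 16 with a sample left out, against 10. Removing a P0 sample leaves 1 there, so the P0 lead was not recomputed. Fisher's exact test did not scale for the depth of the nuclei.

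Of the 191 gene calls, 189 were kept with RLE, 181 with library size only and 131 with DESeq2, with 0 reversed in sign by any of these. Library size alone shifted the median of all genes by 0.14 in NP, -0.11 in PCT and 0.16 in Stroma 1. With the replicate block 123 and 61 calls were made and 178 of the 191 kept. Deviations of same-numbered samples correlated at 0.00045 to 0.28 over the clusters with only 2 shared numbers, so the numbers are not shown to pair the samples. Sums near 10 open calls, as in adult Podo and Stroma 1, limit what can be told at low members.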

Other observations

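The annotation holds 664 nuclei in 2 clusters outside the 13, NP_LOH and PT_out, which entered no comparison. NP_LOH had 0 and 1 nuclei at P0 and 56, 92 and 69 in the adult samples. Its Rora activity, at 826, 790 and 786 CPM in adult order, was above the highest adult mean of the 13 clusters, 635 in NP. Nr1d1 stood at 281, 168 and 316 there, and Hnf4a at 26.5, 21 and 14.6.

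PT_out had 79 and 78 nuclei at P0 and 52, 106 and 131 in the adult samples. Ppara had 89.4 and 129 at P0 and 212, 185 and 301 in the adult samples there, and Nr1h4 57 and 74.3 at P0 and 116, 117 and 158. Hnf4a had 228 and 201 at P0 and 281, 170.1 and 277, and Esrrg 439 and 417 at P0 and 455, 464 and 467. Nr2f1 had 34.2 and 30.8 at P0 and 17.4, 12.8 and 13.9. Ppara, Nr1h4 and Esrrg had all adult samples above both P0 samples, Nr2f1 had them below, and Hnf4a overlapped. These differences were not tested.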
